A study of Mus musculus with 6 samples.

Results

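The 10 genes described here encode enzymes that build glycosaminoglycan chains: Xylt1, Xylt2, B3gat3, Csgalnact2, Chsy1, Chpf, Chpf2, Ext1, Ext2 and Hs3st3b1. They are 10 of 54232 genes in the deposited count table and were found there by their symbols. The group was selected on the read levels of these same libraries, with the knockout and wild-type values known, so the difference between genotypes is given for them as a description and no p-value is printed for it. The libraries came from GFP+ Treg cells of mouse spleen. Treg, or regulatory T, cells are CD4 lymphocytes that hold immune responses in check. One genotype was wild type (WT, 3 libraries) and the other a conventional knockout of BAF60b (KO, 3 libraries), a deletion carried by all cells of the animal and not only by Treg cells. BAF60b, encoded by Smarcd2, is a subunit of the SWI/SNF chromatin remodelling complex. The sources used here do not give ages, the strain, the reporter allele behind the GFP signal or whether animals were pooled.

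Glycosaminoglycans are long, negatively charged sugar chains that are attached to proteoglycan core proteins in the Golgi. Heparan sulfate and chondroitin sulfate chains both start on a short linkage sugar chain that begins with xylose and ends with glucuronic acid. After the linkage, separate enzymes build either the heparan or the chondroitin backbone, and sulfotransferases then decorate it. On leukocytes these chains bind chemokines and growth factors, and in lymphocytes and other blood cells the granule proteoglycan serglycin carries them.

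Library totals lay between 18167053 and 22502804 reads. Levels are given in CPM, read counts scaled to a common library size with TMM factors, which correct for differences in library composition. Log2 fold changes are KO minus WT, from a fit over 13602 genes. A gene is "called" when edgeR's quasi-likelihood test gave it a Benjamini-Hochberg adjusted p under 0.05 over all these genes. Smarcd2 checks the labels: it had 3729, 4173 and 3807 reads in WT and 1157, 1131 and 1335 reads in KO (-1.77 on the log2 scale, SE 0.05). Reads thus remained in KO (58.2 CPM against 198.5 CPM in WT), and counts per gene do not show which part of the transcript they came from. Foxp3, the transcription factor that defines Treg cells, had 559.4, 564.02 and 549.59 CPM in WT libraries and 589.36, 603.16 and 594.98 CPM in those of KO. Every KO library was above WT, and the gene was not called (edgeR adjusted p = 0.253). Of 7 Treg markers 1 was called: Ikzf2, a transcription factor gene, rose (log2 fold change 0.42, edgeR adjusted p = 0.00527). Libraries WT 1 and KO 2 had 0 reads of the 4 Y chromosome genes examined, library KO 3 had 0 reads of Xist, and the other libraries had reads of both kinds. Y chromosome genes mark male material and Xist marks female material. The mix of the sexes thus differed among libraries of each genotype and was not matched between genotypes. The 8 myeloid markers, of which 4 were under 1 CPM in every library, together reached 75.4 CPM in KO 2, against 11.5 to 34.0 CPM elsewhere, led by Csf1r (52.05 CPM in KO 2). The 6 red cell markers also stood highest in KO 2, at 12.5 CPM against at most 3.23 CPM elsewhere. Of the 6 B cell and 5 CD8 T or NK cell markers, 2 were called lower in KO and 0 higher. The B cell receptor gene Cd79b had 13.76, 11.89 and 11.5 CPM in WT and 8.14, 8.24 and 6.68 CPM in KO libraries (edgeR adjusted p = 0.0106). The NK cell gene Klrb1c had 2.9, 2.67 and 2.17 CPM against 1.51, 1.17 and 0.84 CPM (edgeR adjusted p = 0.0353). Other markers of these lists went the other way. Eomes had 2.85, 3.77 and 2.72 CPM in WT and 5.33, 4.32 and 5.66 CPM in KO (edgeR adjusted p = 0.056). Ebf1 and Ncr1, under 1 CPM in every library, were also higher in each KO library. The part of other cells in the results was not tested. The fits without each library cannot show it, since Cd79b and Klrb1c were lower in every KO library. In RNA from bulk cells, fewer cells of a type and less RNA per cell cannot be told apart.

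Of the 10 enzyme genes, 4 were lower in KO and called (Hs3st3b1, Chpf, Xylt2 and B3gat3), 0 were called higher, and 6 were not called. DESeq2 and limma-voom called the same 4 genes lower and 0 higher. Among all genes tested 6.45% were called and 3.20% were called lower. Because the group was selected on this comparison, nothing is read from its count against that share. The same 4 genes were those whose KO and WT values did not overlap, which held for 25.7% of all genes tested. The median log2 fold change was -0.155 over the 10 genes and 0.00 over all genes, and 9 of the 10 had a negative sign, against 48.9% of all genes. The same selection lies behind the overlap, the median and the signs, so nothing is read from them against all genes.

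The sequences before the start sites of 3 of the 4 lower genes are shown with that of Ext2, which was not called, so that DNA upstream of called and uncalled genes can be read side by side. RefSeq (GRCm38.p6, the same assembly as mm10) held entries for 8 of the 10 genes, and not for Xylt1 or Ext1. The 250 bases upstream of the RefSeq start are printed 5′ to 3′ on the strand of the gene, and capitals mark the GC box GGGCGG or the ETS core CCGGAA on either strand. The windows are chr11:63922285-63922534 (minus strand) for Hs3st3b1, chr11:94677494-94677743 (minus strand) for Xylt2, chr19:8920143-8920392 (plus strand) for B3gat3 and chr2:93822569-93822818 (minus strand) for Ext2.
Hs3st3b1: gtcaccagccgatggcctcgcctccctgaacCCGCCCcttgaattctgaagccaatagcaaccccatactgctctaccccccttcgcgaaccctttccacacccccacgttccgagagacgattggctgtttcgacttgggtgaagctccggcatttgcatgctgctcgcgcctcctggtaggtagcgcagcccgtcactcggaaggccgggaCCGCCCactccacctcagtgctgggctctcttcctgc
Xylt2: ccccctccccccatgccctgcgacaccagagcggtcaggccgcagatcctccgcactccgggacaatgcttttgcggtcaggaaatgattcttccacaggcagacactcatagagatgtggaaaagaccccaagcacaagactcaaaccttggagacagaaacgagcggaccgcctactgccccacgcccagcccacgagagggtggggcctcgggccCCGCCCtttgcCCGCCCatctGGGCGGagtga
B3gat3: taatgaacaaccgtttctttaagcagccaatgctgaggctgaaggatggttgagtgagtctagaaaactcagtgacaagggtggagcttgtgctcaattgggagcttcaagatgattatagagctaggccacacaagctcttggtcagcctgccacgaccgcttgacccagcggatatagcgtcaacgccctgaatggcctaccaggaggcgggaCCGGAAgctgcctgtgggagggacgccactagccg
Ext2: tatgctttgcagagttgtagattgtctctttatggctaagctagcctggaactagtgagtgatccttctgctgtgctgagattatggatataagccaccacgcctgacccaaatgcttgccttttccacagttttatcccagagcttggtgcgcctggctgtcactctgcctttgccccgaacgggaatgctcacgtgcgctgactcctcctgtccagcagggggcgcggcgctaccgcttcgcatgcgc

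The GC box stood in the windows of 5 of the 8 genes: 2 copies in Hs3st3b1, 3 in Xylt2, 1 in Chpf, 4 in Csgalnact2 and 2 in Chsy1. Of these, Csgalnact2 and Chsy1 were not called, so the GC box stood before called and uncalled genes. It was present in 32.7% of 32817 mouse promoter windows of this length. The ETS core stood once, in B3gat3, and was present in 12.0% of all windows. CCAAT was found in 4 of the 8 (33.8% of all windows), and neither the RUNX core TGTGGT (14.0%) nor TATAAA (12.4%) was found in any of the 8. Motifs were searched on both strands. The 8 windows held between 10 and 30 CG dinucleotides, where the median window held 6 and the upper quartile began at 16. Chsy1, not called, had the most (30) and B3gat3, called, had the fewest (10). These are letter matches and show no binding. The window of Chpf is not printed because it runs into the first exon of Tmem198, whose gene body lies 225 bases from that of Chpf on the opposite strand.

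**Figure D1:**
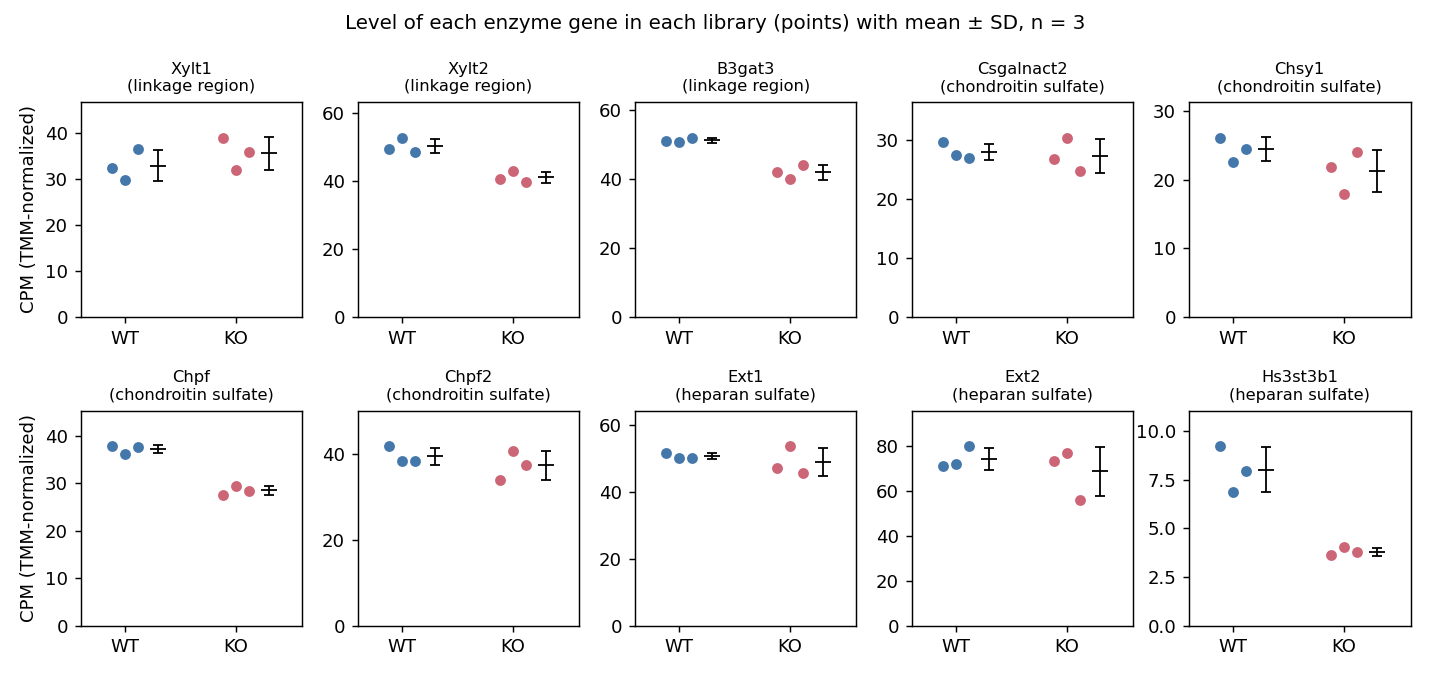
Level of each of the 10 enzyme genes in each library (y axis, TMM-normalized CPM from 0), WT in blue and KO in red, with the mean ± SD of 3 libraries in black. The KO points lie below all WT points for Xylt2, B3gat3, Chpf and Hs3st3b1, and the 2 genotypes overlap for the other 6 genes.

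Chain building starts with the xylosyltransferases Xylt1 and Xylt2, which put the first xylose on a serine of the core protein. Xylt2 (ENSMUSG00000020868, chr11:94663851-94677515, minus strand) had 49.5, 52.7 and 48.6 CPM in WT and 40.6, 42.9 and 39.8 CPM in KO. Every KO library was below every WT library, and the mean went from 50.3 ± 2.19 to 41.1 ± 1.6 CPM (SD, n = 3), which is -0.29 on the log2 scale (SE 0.06). Xylt1 (ENSMUSG00000030657, chr7:117380979-117673580, plus strand) had 32.4, 29.8 and 36.5 CPM in WT and 39.0, 31.9 and 35.9 CPM in KO. Its genotypes overlapped, and its log2 fold change of 0.11 (SE 0.10) was the only positive one of the 10. Leaving out library WT 1, WT 2 or KO 1 ended the Xylt2 call, at log2 fold changes of -0.31, -0.26 and -0.28. Over all genes these fits called 344, 344 and 743 genes, against 877 with all libraries.

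B3gat3 (ENSMUSG00000071649, chr19:8920374-8927234, plus strand) encodes glucuronosyltransferase I, which adds the glucuronic acid that completes the linkage region. It had 50.8, 50.7 and 51.9 CPM in WT and 41.9, 39.8 and 44.1 CPM in KO. The WT libraries were nearly equal and all KO libraries lay below them, at a log2 fold change of -0.29 (SE 0.06). A fit with any single WT library removed no longer called it, at log2 fold changes between -0.30 and -0.28. Over all genes these fits called 344, 344 and 556 genes, against 877 with all libraries. So Xylt2 and B3gat3, which act at the first and the last step of the linkage, stood at 0.818 and 0.820 times their WT means, and both calls ended in some of the fits with 1 library fewer.

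The other linkage genes were 4, all tested, and 0 were called by edgeR, with 2 at an unadjusted p under 0.05, 1 called by DESeq2 and 0 by limma-voom. Fam20b, the kinase that phosphorylates the linkage xylose, averaged 70.3 ± 2.16 CPM in WT and 71.1 ± 2.12 CPM in KO (edgeR adjusted p = 0.907). The next 2 genes were singled out after their values were seen. Pxylp1, the phosphatase that removes that phosphate, had 5.81, 3.96 and 5.09 CPM in WT and 3.37, 2.90 and 2.65 CPM in KO. No KO library reached a WT library, and the log2 fold change of -0.73 (SE 0.19) gave an edgeR adjusted p of 0.0540, which missed the threshold. It passed in DESeq2 and without the filter on low counts, and the adjusted p over all its alternatives lay between 0.00697 and 0.202. B4galt7, the galactosyltransferase of the step after xylose, had 33.2 ± 1.76 and 29.2 ± 1.66 CPM (log2 fold change -0.19, edgeR adjusted p = 0.181).

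Chondroitin chains are begun by Csgalnact2, which adds the first N-acetylgalactosamine, and lengthened by Chsy1 together with the polymerizing factors Chpf and Chpf2. Chpf (ENSMUSG00000032997, chr1:75474569-75479307, minus strand) was the called gene of this step. It had 37.8, 36.3 and 37.6 CPM in WT and 27.6, 29.5 and 28.5 CPM in KO. The spread within a genotype was small beside the gap, with means of 37.3 ± 0.796 CPM (WT) and 28.5 ± 0.936 CPM (KO) and a log2 fold change of -0.39 (SE 0.06). It was called under each of the 14 alternative settings, including each library left out.

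Chpf2 (ENSMUSG00000038181, chr5:24586741-24594556, plus strand), the paralog of Chpf, had 41.7, 38.4 and 38.2 CPM in WT and 34.0, 40.7 and 37.3 CPM in KO. The ranges overlapped, with a log2 fold change of -0.08 (SE 0.08). Its exons share 2466 bases with Smarcd3 on the opposite strand. Smarcd3 had 227 reads in all libraries together against 4643 for Chpf2, and whether reads were counted by strand is not stated. Chsy1 (ENSMUSG00000032640, chr7:66109515-66173798, plus strand), which encodes a chondroitin synthase, had 26.1, 22.6 and 24.5 CPM in WT and 21.8, 17.9 and 24.0 CPM in KO. Library KO 2 was the lowest and KO 3 lay inside the WT range, and the log2 fold change was -0.20 (SE 0.11).

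Csgalnact2 (ENSMUSG00000042042, chr6:118107452-118139140, minus strand) had 29.6, 27.4 and 26.9 CPM in WT and 26.7, 30.4 and 24.7 CPM in KO. The KO values lay on both sides of the WT values (log2 fold change -0.04, SE 0.09), and the sign turned positive without KO replicate 3 (0.03) and with Y chromosome transcripts as a covariate (0.04). Its paralog Csgalnact1 did not pass the filter on low counts, with 5, 5 and 10 reads in WT and 0, 1 and 2 reads in KO. Chsy3, the paralog of Chsy1, had 0 reads in every library, which allows up to 0.133 to 0.165 CPM (3 counts per library, counting error only).

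Heparan sulfate is polymerized by a complex of Ext1 and Ext2. Ext1 (ENSMUSG00000061731, chr15:53064038-53346159, minus strand) had 51.6, 50.1 and 50.1 CPM in WT and 47.1, 53.5 and 45.6 CPM in KO. Ext2 (ENSMUSG00000027198, chr2:93661028-93822568, minus strand) had 70.8, 71.9 and 79.7 CPM in WT and 73.1, 76.6 and 56.1 CPM in KO. For both genes the genotypes overlapped, and the log2 fold changes were -0.05 (SE 0.07) and -0.11 (SE 0.10). Library KO 3 was the lowest for both, and without it the log2 fold change of Ext2 was 0.01. The WT libraries of Ext1 varied by 1.76% (coefficient of variation) and its KO libraries by 8.54%.

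Among the other heparan polymerization genes, Extl3, which starts the heparan backbone, had the highest CPM of its list, at 109.9 ± 3.34 CPM in WT and 111.4 ± 4.92 CPM in KO (edgeR adjusted p = 0.884). Extl2 was not called either (log2 fold change 0.06, edgeR adjusted p = 0.915). Extl1 was scarce, with 15, 21 and 26 reads in WT and 6, 8 and 17 reads in KO. Scaled to CPM the genotypes did not overlap (0.822, 1.0 and 1.31 CPM in WT, 0.301, 0.407 and 0.752 CPM in KO). Extl1 was not called (log2 fold change -1.08, SE 0.40, edgeR adjusted p = 0.159).

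The largest difference in the group was that of Hs3st3b1 (ENSMUSG00000070407, chr11:63885792-63922290, minus strand), a sulfotransferase that adds the rare sulfate at the 3-O position of heparan glucosamine. It had 168, 144 and 158 reads in WT and 72, 79 and 85 reads in KO. These are 9.21, 6.88 and 7.97 CPM in WT and 3.62, 4.02 and 3.76 CPM in KO, with no overlap. The KO libraries were close together and the WT libraries were more spread (8.02 ± 1.17 against 3.80 ± 0.204 CPM), and the log2 fold change was -1.07 (SE 0.15), or 0.474 times the WT mean. It was called under all 14 alternatives, with log2 fold changes between -1.18 (without WT replicate 2) and -0.97 (without WT replicate 1).

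Hs3st3b1 was the 1 heparan 3-O-sulfotransferase gene of the list that passed the filter on low counts. The other 6 did not: Hs3st1, Hs3st4 and Hs3st5 had 0 CPM in all libraries, Hs3st3a1 and Hs3st6 at most 0.10 CPM, and Hs3st2 at most 0.66 CPM (KO 2). Of the 17 other heparan modification genes, 5 were tested and 0 were called by edgeR, DESeq2 or limma-voom, with 0 at an unadjusted p under 0.05. Ndst1, the N-deacetylase and N-sulfotransferase that starts sulfation, had the highest CPM of these, at 123.5 ± 3.41 CPM in WT and 122.8 ± 5.46 CPM in KO (edgeR adjusted p = 0.952). The other 12 did not pass the filter on low counts, among them the sulfatase genes Sulf1 and Sulf2.

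**Figure D2:**
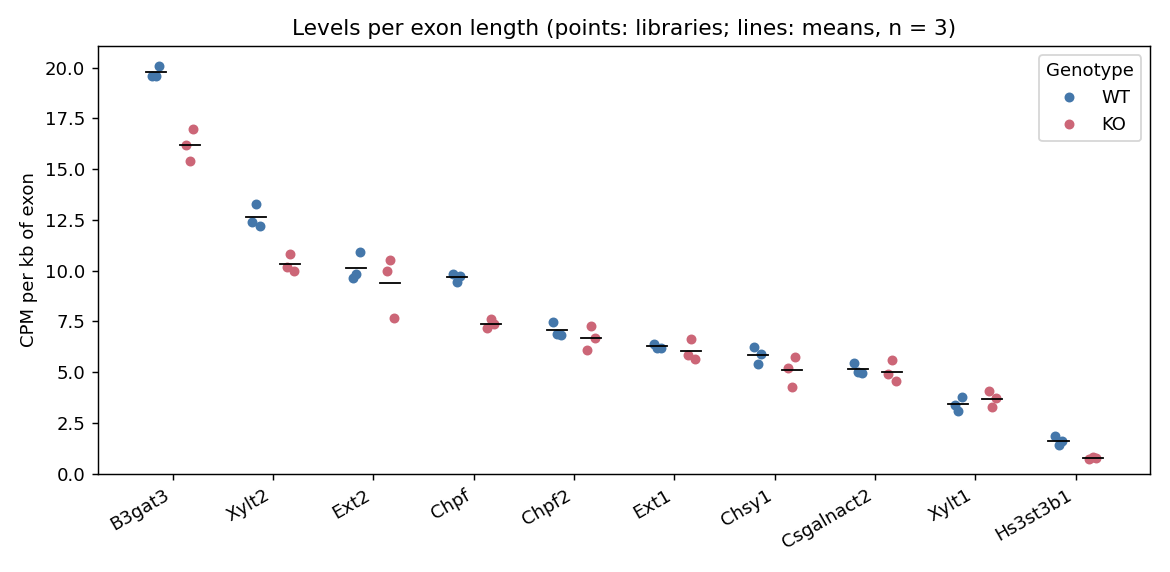
Level per exon length (y axis, CPM per kb of merged exons, from 0) of the 10 genes, ordered by the WT mean, with each library as a point (WT blue, KO red) and the mean of 3 libraries as a line. B3gat3 is highest in both genotypes and Hs3st3b1 lowest.

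Levels of different genes were compared per kb of merged exon, from the GENCODE M21 models. In WT the order of the level per kb was B3gat3 (19.8 CPM per kb), Xylt2 (12.6), Ext2 (10.1), Chpf (9.66), Chpf2 (7.06), Ext1 (6.26), Chsy1 (5.84), Csgalnact2 (5.15), Xylt1 (3.41) and Hs3st3b1 (1.63). Neighbours whose WT libraries overlapped were Ext2 with Chpf, Ext1 with Chsy1, and Chsy1 with Csgalnact2. All other neighbours were separated in each library. The order of the means was the same in KO, where Xylt2 with Ext2, and Chpf with Chpf2, Chpf2 with Ext1, Ext1 with Chsy1 and Chsy1 with Csgalnact2 overlapped. Of the linkage enzymes, B3gat3 and Xylt2 stood at the top and Xylt1 next to last.

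Within the pairs of paralogs, the called gene was the one with the higher WT level per kb. Xylt1 made up 21.3, 18.9 and 23.7% of the summed level per kb of Xylt1 and Xylt2 in WT, and 28.4, 23.4 and 27.1% in KO. Library KO 2 lay inside the WT range. Chpf made up 56.8, 57.8 and 58.8% of Chpf and Chpf2 in WT and 54.0, 51.2 and 52.5% in KO, with no overlap. Ext1 made up 38.3 ± 1.78% of Ext1 and Ext2 in WT and 39.4 ± 2.83% in KO, which overlapped. These shares come from the same libraries that chose the genes and carry no test. Exon models may not match the isoforms these cells use, so a share per kb is approximate.

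Within 5 kb of the 10 genes lay 7 tested genes, of which 0 were called by edgeR, 0 by DESeq2 and 0 by limma-voom, with 1 at an unadjusted p under 0.05. Mrpl27, 3762 bases from Xylt2, had a log2 fold change of -0.33 (edgeR adjusted p = 0.12), and Tmem198, beside Chpf on the opposite strand, one of 0.33 (edgeR adjusted p = 0.569). Of the 10 genes, only Chpf2 shared exon bases with another gene that had reads, in the annotation used.

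**Figure D3:**
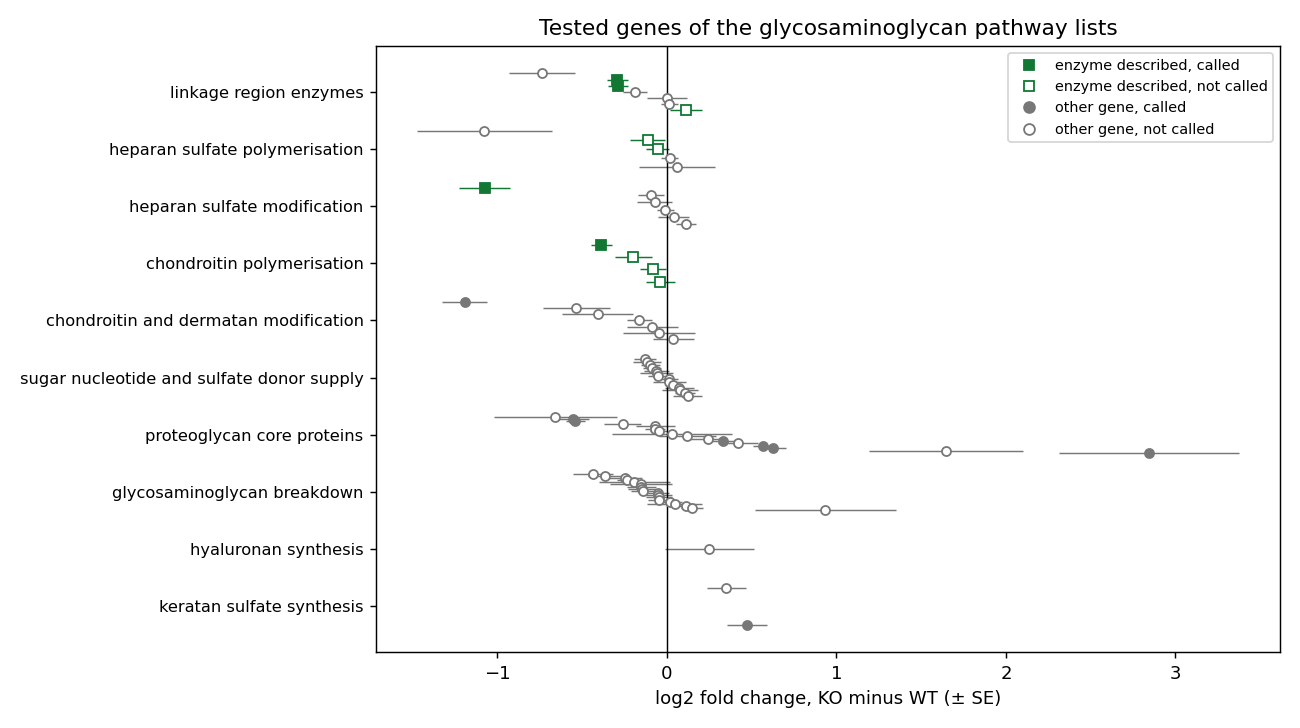
Log2 fold change, KO minus WT (x axis, ± SE), of each tested gene in the pathway lists (rows), with the 10 enzyme genes as green squares and other genes as grey circles, filled where called. Hs3st3b1 (-1.07) and Chst15 (-1.19) are the called enzymes farthest from 0, and the called proteoglycan core genes lie on both sides of it.

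The rest of the pathway was taken from lists of 111 other genes, of which 70 passed the filter. Of these 70, 5 were called higher and 3 lower, and their median log2 fold change was -0.05. The share called in either direction was 11.4%, against 6.45% of all genes, of which 3.25% were higher and 3.20% lower. These lists were chosen with earlier results of these data known, so nothing is read from that share. Of the 80 listed genes that are not core proteins, 54 were tested, and Chst15 was the 1 called lower and Chst2 the 1 called higher. In the deposited pathway annotation, chondroitin and dermatan sulfate synthesis had 3 of 14 tested genes called lower (Xylt2, B3gat3 and Chpf) and 0 higher. Heparan sulfate synthesis had 3 of 16 lower (Xylt2, B3gat3 and Hs3st3b1) and 0 higher, where 3.20% of all genes were called lower. Keratan sulfate synthesis had 1 of 9 higher (Chst2) and 0 lower. The genes called lower are all among the 10 described, whose selection used these values, so nothing is read from these counts and the annotation adds no gene called lower. It does not list Chst15 in these pathways.

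Chst15 encodes the sulfotransferase that adds a further sulfate to N-acetylgalactosamine already carrying one, which gives the highly sulfated chondroitin sulfate E. It had 21.6, 20.9 and 19.9 CPM in WT and 11.3, 7.89 and 8.18 CPM in KO. All KO libraries were far below WT (20.8 ± 0.870 against 9.12 ± 1.90 CPM, log2 fold change -1.19, SE 0.13, edgeR adjusted p = 0.000970), and the call held under all 14 alternatives, with an adjusted p of at most 0.0106. Like Hs3st3b1, Chst15 acts on a chain that other enzymes have already built. The 6 other tested genes of chondroitin and dermatan modification were not called. Chst11, which makes the usual 4-O-sulfate and was singled out after its values were seen, had 11.2, 12.0 and 7.41 CPM in WT and 8.34, 7.28 and 5.62 CPM in KO with an edgeR adjusted p of 0.165 (log2 fold change -0.53). It passed with the replicate block and without the filter on low counts.

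Chst2, a sulfotransferase that acts on N-acetylglucosamine in keratan sulfate and in selectin ligands, rose. It had 35.5, 27.3 and 28.5 CPM in WT and 43.3, 47.5 and 36.0 CPM in KO, where KO 3 was just above WT 1 (log2 fold change 0.47, SE 0.12, edgeR adjusted p = 0.0448). Scaling by library size alone ended the call, as did leaving out library WT 2, WT 3, KO 1 or KO 2 (adjusted p up to 0.187). Of the supply genes, which make or import the sugar nucleotides and the sulfate donor, 14 were tested and 0 called by edgeR, DESeq2 or limma-voom, with 0 at an unadjusted p under 0.05. Slc26a2, the sulfate importer, had the highest CPM of them, at 109.6 ± 4.49 CPM in WT and 110.7 ± 3.6 CPM in KO (edgeR adjusted p = 0.910).

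Breakdown genes gave no call either: of 18 tested, 0 passed in edgeR, DESeq2 or limma-voom, though 6 had an unadjusted p under 0.05. Ids, which removes sulfate from iduronic acid, had the highest CPM of the list (log2 fold change -0.05, edgeR adjusted p = 0.718). Singled out after their values were seen, the sulfatase genes Arsb (log2 fold change -0.44, SE 0.12) and Galns (-0.36, SE 0.10) had no overlap between genotypes and edgeR adjusted p-values of 0.0629 and 0.0677. Both passed without KO replicate 1 (adjusted p = 0.0187 and 0.0444) and without the filter on low counts, and the adjusted p over their alternatives reached 0.177 and 0.220. Of the hyaluronan synthases only Has3 was tested, at 1.43 CPM in WT (edgeR adjusted p = 0.661). Its exons overlap over 352 bases with those of Chtf8 in antisense direction, which had 24017 reads against 191 for Has3 and leaves the count of Has3 uncertain.

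**Figure D4:**
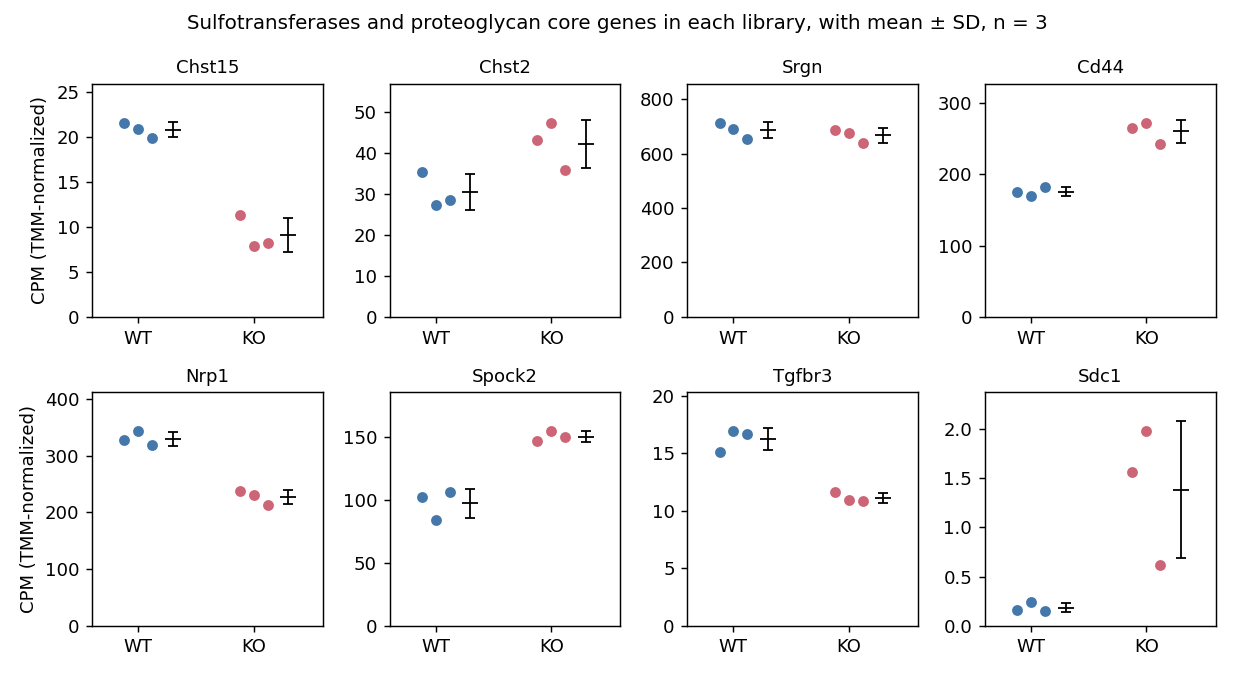
Level in each library (y axis, TMM-normalized CPM from 0) of the sulfotransferase genes Chst15 and Chst2 and of 6 proteoglycan core genes, WT in blue and KO in red, with mean ± SD of 3 libraries. Srgn overlaps between genotypes, Chst15, Nrp1 and Tgfbr3 are lower in KO, and Chst2, Cd44, Spock2 and Sdc1 are higher.

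Of 16 tested genes of the core proteins that carry the chains, 4 were called higher, 2 lower and 10 were not called. That is 37.5% called, against 6.45% of all genes. The list was chosen with earlier results of these data known, so nothing is read from this share. Srgn, which encodes serglycin, had the highest CPM of the core genes: 714.5, 690.7 and 655.1 CPM in WT and 687.9, 674.9 and 637.6 CPM in KO, overlapping ranges (log2 fold change -0.04, SE 0.05, edgeR adjusted p = 0.718). Spock2, a secreted testican with glycosaminoglycan chains, rose from 101.8, 84.2 and 105.8 CPM to 146.4, 154.4 and 149.9 CPM (log2 fold change 0.63, SE 0.08, edgeR adjusted p = 0.00176). Cd44, the hyaluronan receptor, some forms of which carry chains, rose (log2 fold change 0.57, edgeR adjusted p = 0.000507). Nrp1, a semaphorin receptor that can carry a chain, fell from 328.2, 343.3 and 318.9 CPM to 238.2, 230.9 and 213.1 CPM (log2 fold change -0.54, edgeR adjusted p = 0.000613). Tgfbr3, the betaglycan core, fell too (log2 fold change -0.55, SE 0.09, edgeR adjusted p = 0.00742). Each of these 4 calls held under all 14 alternatives.

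Sdc1 and Aplp2, also called higher, fall outside the naming rule and were chosen after their values were seen. Sdc1, the syndecan that marks plasma cells, had 3, 5 and 3 reads in WT and 31, 39 and 14 reads in KO (edgeR adjusted p = 0.0123). The plasma cell gene Jchain had 18.7, 18.4 and 4.82 CPM in KO against 4.27, 4.92 and 6.96 CPM in WT. Library KO 3 lay inside the WT range, and Jchain was not called (edgeR adjusted p = 0.0961). Tnfrsf17, another plasma cell marker, was under 1 CPM in each library, and the summed level of the 4 plasma cell markers ranged from 85.6 to 91.4 CPM in WT and from 84.3 to 93.4 CPM in KO, nearly all of it Prdm1, which effector Treg cells express too. Prdm1 went the other way, with 86.98, 80.43 and 78.85 CPM in WT and 72.91, 73.06 and 78.76 CPM in KO, and was not called (edgeR adjusted p = 0.228). The part of plasma cells in the Sdc1 value was not tested. Aplp2 had 157.6, 160.0 and 152.0 CPM in WT and 201.6, 211.6 and 177.9 CPM in KO, with an edgeR adjusted p of 0.0150 (log2 fold change 0.33). Removing any single WT library ended the calls of Sdc1 and Aplp2 (adjusted p up to 0.0695 and 0.0732), in fits that also called fewer of all genes.

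**Figure D5:**
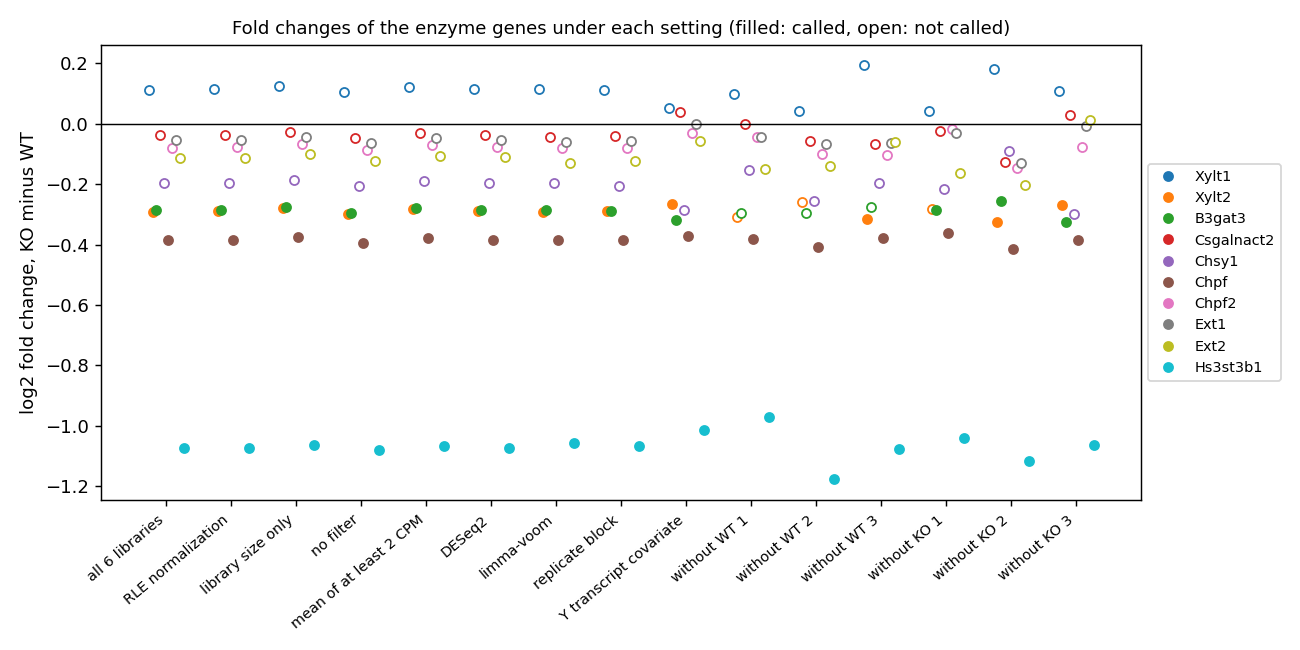
Log2 fold change, KO minus WT (y axis), of the 10 enzyme genes (colours) with all 6 libraries and under each alternative setting (x axis), filled where the gene was called. Hs3st3b1 and Chpf are filled throughout, while Xylt2 and B3gat3 open in some of the fits that leave out a library.

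The alternative fits reuse the libraries on which the enzyme genes were selected, so they describe the calls and lend them no support. Over 14 alternatives the log2 fold change of Xylt2 lay between -0.33 and -0.26, that of B3gat3 between -0.32 and -0.25, and that of Chpf between -0.41 and -0.36. With WT replicate 1 or WT replicate 2 left out, 2 of the 10 genes were called, and with KO replicate 1 or WT replicate 3 left out, 3 were. Without KO replicate 2, the library with the highest myeloid marker sum, the same 4 genes were called and the log2 fold change of Hs3st3b1 was -1.12. With the level of Y chromosome transcripts as a covariate the 4 genes were again called, with log2 fold changes of -1.02 (Hs3st3b1), -0.37 (Chpf), -0.27 (Xylt2) and -0.32 (B3gat3).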

How the data were processed

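The deposited values are unnormalized read counts, whole numbers for each Ensembl gene in each of 6 libraries. Per the submitters' processing notes, HISAT2 2.1.0, fastp 0.23.2, DESeq2 1.34.0 and Picard were used with mm10. For their roles, the read counter, its strand setting and any duplicate removal, nothing is stated. The labels do not say whether each library is a different mouse. Y chromosome transcripts summed to 0, 144 and 246 CPM in the WT libraries and to 305, 0 and 448 CPM in those of KO. Libraries of a genotype were therefore not repeats of the same cells. Libraries WT 2, WT 3 and KO 1 had reads of both the Y chromosome genes and Xist, so each held material of more than a single mouse. The number of mice behind each library is not given, so the p-values reflect spread among these libraries alone. No 2 libraries of a genotype agreed within sampling noise (chi-square per degree of freedom at least 5.03).

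Of 54232 genes listed, 13602 passed filterByExpr (minimum count 10, minimum total 15). They were scaled by TMM and tested, KO against WT, with edgeR 4.0.16's quasi-likelihood test (R 4.3.3) over all genes, without a block. The SE is the log2 fold change divided by the square root of F. Dates in the symbol column (27) were restored from the gene identifier. Alternatives used RLE or library-size scaling, no filter, DESeq2 1.42.0, limma-voom (limma 3.58.1), a filter at a mean of 2 CPM, a replicate block, Y chromosome transcripts as a covariate, and each library left out. The steps were tested on simulated counts.

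The members and lists were chosen with earlier results of these data known. Named genes are the 10 enzymes, Smarcd2, up to 4 called genes of each list by adjusted p (or its most abundant gene where none was called), paralogs of members and Srgn. The lists covered linkage, heparan and chondroitin polymerization and modification, donor supply, core proteins, breakdown, hyaluronan and keratan sulfate.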

Additional observations from a re-analysis of the deposited data

How the results depend on the processing

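The count of called enzyme genes was 4 in each of the 8 alternatives that kept all libraries, and between 2 and 4 with 1 library left out. The count of other pathway genes called, 8 in the main analysis, was 15 without the filter on low counts, between 7 and 10 in the other alternatives with all libraries, and between 5 and 9 with 1 library left out (5 without WT replicate 2 or WT replicate 3). Over all genes the 877 calls became 1624 without the filter, and between 344 (without WT replicate 1 or WT replicate 2) and 848 with 1 library left out. With the replicate block 738 genes, 4 enzyme genes and 9 other pathway genes were called. Same-numbered libraries did not deviate together (correlations of -0.276, -0.078 and 0.23 across 11155 genes), so the numbers were not taken as pairs. Signs turned for genes near 0: Csgalnact2 had 0.038 with the Y transcript covariate, and Ndst1 had 0.003 with library-size scaling. With 1 library left out, Ext2 (-0.20 to 0.014), Csgalnact2 (-0.13 to 0.030), Fam20b (-0.014 to 0.040), Extl3 (-0.019 to 0.039), Extl2 (-0.20 to 0.28), Ndst1 (-0.046 to 0.013), Slc26a2 (-0.023 to 0.040) and Ids (-0.094 to 0.0097) also crossed 0. The cause of these changes was not tested. Scaling moved the median of all genes by at most 0.02 on the log2 scale. Genes at a few reads per library, such as Csgalnact1, did not pass the filter of the main fit. The fit without the filter included Csgalnact1 and did not call it.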
